A study of Mus musculus with 4 samples.

Results

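The nasal septum has a core of hyaline cartilage beneath the mucosa, and 10 genes that chondrocytes, the cells of cartilage, use to build and maintain their matrix were followed in septal nasal mucosa of young adult and aged mice. The 10 genes were chosen by symbol, with earlier results of these data known (*Acan*, *Hapln1*, *Comp*, *Matn1*, *Matn3*, *Matn4*, *Chad*, *Ucma*, *Sox9* and *Sox5*). They were found on the array through the transcript accession of each probe that is not a control, giving 16 probes, and they are 10 of the 45604 genes tested. RNA came from male C57BL/6J mice with no transgene or treatment, aged 8 weeks (young adult) or 16 months (aged), and each of the 4 Agilent one-color arrays was hybridized with RNA pooled from 5 mice, giving 2 arrays per age. The labels call the tissue olfactory epithelium while their collection protocol names the septal nasal mucosa, and a further description that speaks of silica and lung matches neither the titles nor the methods and was not used. The methods list fewer mice per age for gene analyses than 2 separate pools would take and leave unsaid whether an animal entered both pools of its age, so P-values here measure the spread between pools of RNA, which may be technical. In a bulk sample such as this, fewer cells of a type and less RNA per cell cannot be told apart.

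Hyaline cartilage is a gel of aggrecan, a proteoglycan whose chondroitin sulphate chains hold water, tied to hyaluronan by link protein and held in a network of type II collagen. Matrilins, cartilage oligomeric matrix protein and chondroadherin are glycoproteins that connect the collagen fibrils, the proteoglycans and the cells. SOX9 is the transcription factor that starts and keeps the chondrocyte programme, and SOX5 works beside it with the closely related SOX6, while aggrecan and type II collagen genes are among the best known targets of these factors.

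Of the 10 genes, *Acan* and *Ucma* fell in aged mice and none rose. The remaining 8 were not called. Both genes passed the thresholds of the study's methods, a P-value below 0.05 and a false discovery rate (FDR) below 0.25 in limma, and the calls were 2 of 10 against 2.33% of all genes tested in that direction and 0 of 10 against 1.65% in the other, where 0 also had an unadjusted P-value below 0.05. Of the 2, only *Acan* also reached a mean level of 100 and a fold change of 1.5, limits that 1.15% of all genes met in the lower direction. For 6 of the 10 genes both aged values were lower than both young adult values (*Acan*, *Comp*, *Matn4*, *Sox9*, *Chad* and *Ucma*), an arrangement that 21.8% of all genes had. The same 6 had an unadjusted P-value below 0.05, against 7.08% of all genes in the lower direction and 5990 of the 45604 in either direction. The median log2 difference over the readings of the 10 genes, aged over young adult, was -0.31, with *Matn1* and *Matn3*, which stayed at background, counted in, and that of all genes was 0.0093. An exact permutation test of a single gene with 2 arrays against 2 cannot give a P-value below 0.333, so each call rests on limma, which joins the spread of one gene to that of all genes.

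Of the 10 genes, 3 that mark cartilage closely were dim in this tissue. *Matn1* and *Matn3*, which are nearly restricted to cartilage, were not well above background on the 4 arrays, and *Ucma* was well above background on the young adult arrays only. Of the 16 probes, 8 passed that detection limit on every array and 3 on none. By gene, 6 of the 10 had a probe well above background on every array. Several of the brighter genes are also used by other cells: *Comp* by tendon and fibroblasts, *Sox9* by glands and olfactory support cells, and *Sox5* by neurons.

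The promoters of 8 of the 10 genes were in a RefSeq table of mouse assembly GRCm38.p6, in 9 windows of 300 bases that end shortly after the transcription start. *Comp* and *Sox9* had no entry. The windows of *Acan* and *Ucma* are shown because these are the genes that fell, that of *Chad* because it holds the only TATAAA among the members, and that of *Sox5* because it holds the only SOX letters. They lie at chr7:79052976-79053275 (plus strand), chr2:4975872-4976171 (plus strand), chr11:94564797-94565096 (plus strand) and chr6:143947057-143947356 (minus strand), and each is read 5′ to 3′ on the strand of its gene. Capitals mark any of 4 motifs found on either strand: ACAAAG and ACAATG, core letters of SOX sites, TATAAA, the TATA box, and GGGCGG, the core of a GC box.
Acan: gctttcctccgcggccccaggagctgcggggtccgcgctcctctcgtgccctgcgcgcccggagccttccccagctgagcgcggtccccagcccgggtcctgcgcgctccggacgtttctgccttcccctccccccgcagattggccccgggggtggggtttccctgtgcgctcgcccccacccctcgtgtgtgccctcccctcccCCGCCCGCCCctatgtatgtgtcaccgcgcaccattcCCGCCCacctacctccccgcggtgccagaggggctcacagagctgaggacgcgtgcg
Ucma: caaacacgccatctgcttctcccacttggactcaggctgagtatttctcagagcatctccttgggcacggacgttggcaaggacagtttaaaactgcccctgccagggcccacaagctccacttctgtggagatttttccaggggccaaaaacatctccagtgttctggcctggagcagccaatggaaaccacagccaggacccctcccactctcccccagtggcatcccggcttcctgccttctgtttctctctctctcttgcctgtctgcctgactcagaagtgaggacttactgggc
Chad: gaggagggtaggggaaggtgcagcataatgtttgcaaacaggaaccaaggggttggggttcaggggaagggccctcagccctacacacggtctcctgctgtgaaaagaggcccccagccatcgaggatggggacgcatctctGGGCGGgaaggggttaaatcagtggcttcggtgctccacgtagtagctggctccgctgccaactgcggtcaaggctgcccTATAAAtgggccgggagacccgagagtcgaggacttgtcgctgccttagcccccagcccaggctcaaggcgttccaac
Sox5: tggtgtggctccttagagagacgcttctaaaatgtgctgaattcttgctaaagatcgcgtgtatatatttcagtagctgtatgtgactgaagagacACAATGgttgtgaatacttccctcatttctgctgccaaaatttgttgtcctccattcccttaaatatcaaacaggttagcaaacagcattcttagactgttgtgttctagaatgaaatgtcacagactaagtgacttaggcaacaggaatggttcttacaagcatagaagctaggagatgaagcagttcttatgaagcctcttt
The *Acan* window was 74% G and C, against a median of 52.7% over the 32851 windows of the table, and held GGGCGG on the opposite strand at -44, -40 and -7 from the start, the first pair overlapping. The *Ucma* window, at 56% G and C, held none of the 4 motifs. In the *Chad* window TATAAA began at -28 and GGGCGG at -108, and in the *Sox5* window, at 39.7% G and C, ACAATG began at -154. GGGCGG was in 5 of the 9 windows and in 35.7% of all windows, TATAAA in 1 and in 13.6%, ACAATG in 1 and in 12.6%, and ACAAAG in 0 and in 18.7%. These are matches of letters in short windows and say nothing of whether a factor binds there. The enhancers through which SOX9 acts on cartilage genes mostly lie farther away.

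*Acan*, which encodes the core protein of aggrecan, fell in aged mice. Its single probe read 219.7 and 163.3 in normalized intensity in the young adult pools and 76.5 and 77.7 in the aged pools, the groups did not overlap, and on the first aged array it was not well above background. The young adult level averaged 192 ± 39.9 (SD, n = 2 pools) and the aged level 77.1 ± 0.788, 2.46-fold lower. The log2 fold change was -1.30 (standard error 0.18, 95% interval -1.84 to -0.76, FDR = 0.208 by limma). The young adult arrays stood farther apart than the aged arrays, and the difference was -1.52 between the pair of arrays that share a slide and -1.07 between the other pair. A fit with slide as a block reduces to the first of these, because each of the other slides holds 1 array.

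*Hapln1* encodes link protein, which locks aggrecan onto hyaluronan. Its level was 113.7 and 99.6 in the young adult pools and 104.6 and 84.9 in the aged pools, so the groups overlapped. The log2 fold change was -0.18, with a 95% interval of -0.64 to 0.29 and an FDR of 0.684 by limma. Its 2 probes were well above background on all arrays and gave -0.20 and -0.15. No difference in *Hapln1* was detectable with these arrays, and the interval leaves room for a change in either direction. Whether *Hapln1* and *Acan* differed in their change was not tested.

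**Figure D1:**
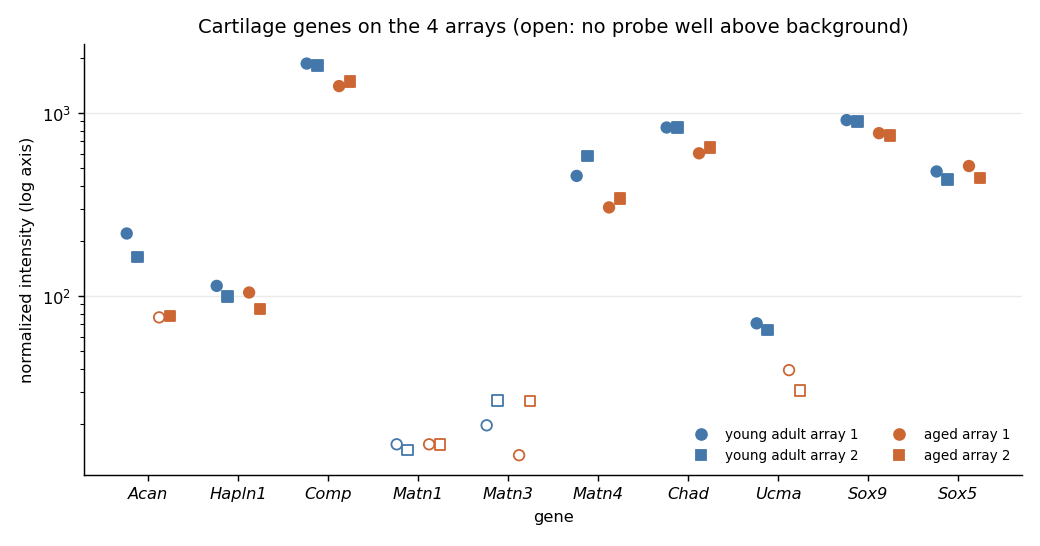
Normalized intensity (vertical log axis) of the 10 cartilage genes (horizontal axis) on each of the 4 arrays, with blue for young adult, orange for aged, circles for array 1, squares for array 2 and open symbols where no probe of the gene was well above background. Heights are to be compared within a gene only: *Acan* and *Ucma* show the widest gaps between colours, and *Matn1* and *Matn3* are open on every array.

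*Comp* encodes cartilage oligomeric matrix protein, a thrombospondin-family glycoprotein that binds collagen fibrils in cartilage and tendon. It read 1861 and 1821 in the young adult pools and 1402 and 1481 in the aged pools. Both aged values lay below both young adult values, and each pair was close. The mean was 1841 ± 28.0 in young adult and 1442 ± 56.2 in aged mice, with a log2 fold change of -0.35 (95% interval -0.59 to -0.11). At an FDR of 0.283 by limma, *Comp* missed the threshold.

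*Chad* encodes chondroadherin, a leucine-rich repeat protein that links collagen to integrins on chondrocytes. It read 832.9 and 833.4 in the young adult pools and 602.2 and 646.4 in the aged pools. The young adult arrays were nearly identical and the aged arrays lay below them. The log2 fold change was -0.42 (standard error 0.083, 95% interval -0.67 to -0.17) and the FDR 0.258 by limma, just outside the threshold. Within the shared slide the difference was -0.47 and on the other slides -0.37.

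*Ucma*, a small secreted protein of resting chondrocytes that carries many gamma-carboxyglutamate residues, fell in aged mice from a low level. It read 71.0 and 65.4 in the young adult pools and 39.4 and 30.5 in the aged pools, with no overlap. The mean was 68.2 ± 3.99 in young adult and 35.0 ± 6.35 in aged mice, where neither of its probes was well above background. The difference passed at an FDR of 0.234 by limma. Its size is uncertain because the aged readings were dim, so no fold is given. The log2 fold change ran from -1.66 to -0.46 over the 17 alternative settings described at the end.

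The 2 probes of *Ucma* gave different pictures. The brighter probe read 80.7 and 87.4 on the young adult arrays, where it was well above background, and 67.6 and 34.2 on the aged arrays, where it was not. It did not pass when each probe was fitted on its own (FDR = 0.489 by limma). The aged arrays differed from each other more on this probe than the nearer of them differed from young adult mice, with -0.26 within the shared slide and -1.35 between the others. The dimmer probe read 62.5 and 48.9 against 23.0 and 27.1, lower on both aged arrays (FDR = 0.209). It was well above background on the second young adult array only, so no fold is given for it.

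Matrilins are adaptor proteins with von Willebrand factor A domains that join collagens, proteoglycans and COMP. The 3 matrilins split between dim and measured. *Matn1* read between 14.4 and 15.5 and *Matn3* between 13.5 and 26.9 over the 4 arrays. Neither was well above background anywhere, so neither has a fold change here.

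*Matn4*, the matrilin found most widely outside cartilage, was measured by 2 probes. Averaged, it read 453 and 581 in the young adult pools and 305 and 342 in the aged pools, without overlap. The log2 fold change was -0.67 (95% interval -1.17 to -0.16), a 1.59-fold lower mean, and the FDR of 0.305 by limma missed the threshold. The dim probe had the wider spread, with 93.9 and 155.0 in young adult against 61.5 and 92.6 in aged mice, and it missed the detection limit on the first aged array. The bright probe read 2187 and 2175 against 1513 and 1264, a log2 fold change of -0.66 that did pass when each probe was fitted on its own (FDR = 0.237). The probes thus gave nearly the same size of difference and differed in how closely their arrays lay together.

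**Figure D2:**
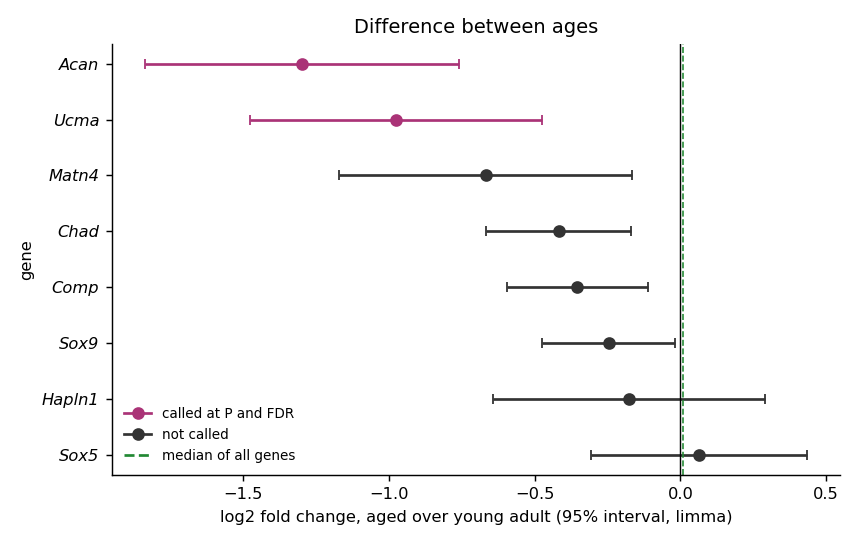
Log2 fold change of aged over young adult mice (horizontal axis, points) with its 95% interval from limma (bars) for the 8 genes that had a probe well above background on at least 1 array, purple where P and FDR both passed, and a dashed line at the median of all genes. The intervals of 6 genes lie below 0, from *Acan* at -1.30 to *Sox9* at -0.25, while those of *Hapln1* and *Sox5* include 0. The *Ucma* point rests on aged readings that were not well above background.

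Of the transcription factors, *Sox9* differed little. It read 914 and 897 in the young adult pools and 776 and 753 in the aged pools, so the groups were apart and each was tight. The log2 fold change was -0.25 (95% interval -0.47 to -0.018), a 1.19-fold lower mean, with an FDR of 0.358 by limma. Its 2 probes, both well above background everywhere, gave -0.27 and -0.22.

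*Sox5* showed no direction as a gene, and its 3 probes went different ways. Averaged, it read 479 and 433 in the young adult pools and 513 and 442 in the aged pools, with overlap, and the log2 fold change was 0.064 (95% interval -0.31 to 0.44, FDR = 0.856 by limma). The sign of that mean turned under 2 other ways of handling signal and with single arrays left out. The brightest probe read 28747 and 27250 against 35123 and 32386, higher on both aged arrays, with a log2 fold change of 0.27 (FDR = 0.373). The middle probe read 95.8 and 102.8 against 76.5 and 70.4, lower on both aged arrays, at -0.43 (FDR = 0.265). The third stayed at background on all arrays. None of the 3 passed the threshold, and which *Sox5* transcripts each probe reads was not tested.

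**Figure D3:**
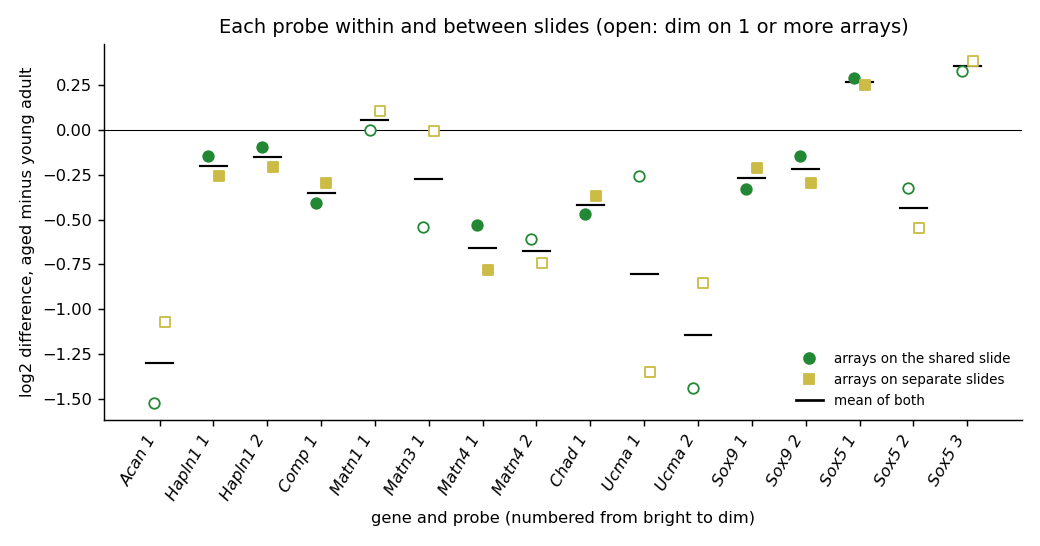
Log2 difference, aged minus young adult (vertical axis), for each of the 16 probes (horizontal axis, numbered from bright to dim within a gene), with circles for the 2 arrays on the shared slide, squares for the other 2 arrays, a line for their mean and open symbols for probes that were not well above background on all arrays. The bright probes of *Comp*, *Chad*, *Matn4* and *Sox9* lie below 0 on the shared slide and outside it, whereas the probes of *Ucma* spread from -0.26 to -1.44 and those of *Sox5* lie on both sides of 0.

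Other genes of the tissue were counted in 5 lists written by role, also with earlier results of these data known. Of the 69 genes in these lists, 12 fell and 0 rose by limma, where 2.33% and 1.65% of all genes did. A probe was well above background on every array for 60 of the 69, whereas all genes include undetected ones. Whether the lists differ from other detected genes was not tested. At an unadjusted P-value below 0.05 in limma, 25 of the 69 were lower and 2 higher, where 7.08% of all genes were lower. In either direction 5990 of the 45604 genes passed that limit. Their median log2 fold change was -0.15. By list, 3 of 8 cartilage collagens, 4 of 20 other matrix genes and 2 of 18 regulators fell. So did 3 of 11 genes of matrix breakdown and mineralization and 0 of 12 genes of sulphation and chondroitin synthesis. The medians of these lists were -0.52, -0.24, -0.12, -0.28 and -0.054.

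Type II collagen, the main fibril of the network that holds aggrecan, had the largest fall of the 3 called collagens. *Col2a1* read 1015 and 949 in the young adult pools and 257 and 293 in the aged pools, a log2 fold change of -1.84 (FDR = 0.168 by limma). *Col11a1*, whose product sits in the core of the same fibrils, read 720.0 and 669 against 312.3 and 311.7, at -1.15 (FDR = 0.178). *Col10a1*, the collagen of hypertrophic chondrocytes, read 299 and 308 against 159 and 151, at -0.97 (FDR = 0.178). On all 3 the groups were far apart. For 6 of the 8 collagens the aged values were both below the young adult ones, an arrangement that 21.8% of all genes had. *Col9a1* was the only one of the 8 above 0.

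Among the other matrix genes, *Cilp2*, *Fmod*, *Mia* and *Cytl1* fell. *Cilp2*, a relative of cartilage intermediate layer protein, read 316.2 and 316.9 in the young adult pools and 140.2 and 158.2 in the aged pools, at -1.09. *Fmod*, fibromodulin, which binds collagen in cartilage and tendon alike, was at -1.04, and *Mia*, a small protein secreted by chondrocytes, at -0.96, each with an FDR of 0.178 by limma. *Cytl1*, a cytokine-like product of chondrocytes, was at -0.52 (FDR = 0.236). For 16 of the 20 the groups lay apart with the aged arrays lower, an arrangement that 21.8% of all genes had.

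Of the regulators, *Pth1r*, the receptor for parathyroid hormone and PTHrP, and *Runx2*, a factor of hypertrophic chondrocytes and osteoblasts, fell. *Pth1r* read 1143 and 1177 against 731 and 724, at -0.67 (FDR = 0.189 by limma), and *Runx2* 98.5 and 95.5 against 71.5 and 65.9, at -0.50 (FDR = 0.240). Both act in bone cells as well. In the list of breakdown and mineralization, *Mmp13*, the collagenase of hypertrophic cartilage and bone, was at -1.19 (FDR = 0.178), *Panx3*, a channel of hypertrophic chondrocytes and osteoblasts, at -1.17 (FDR = 0.204), and *Adamts9*, a protease that can cut aggrecan, at -0.53 (FDR = 0.222).

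The last list holds 12 genes of sulphation and chondroitin synthesis, including a sulphate carrier, and not all of them make the chains of aggrecan. Their log2 fold changes ran from -0.42 for *Csgalnact1*, which starts the chain, to 0.18 for *Chst11*, which sulphates it. In the limma fit 0 of the 12 were called in either direction and 0 had an unadjusted P-value below 0.05. With 2.33% of all genes called lower, 0 calls among 12 genes is near the background share. Many of these genes are used by most cells that secrete proteoglycans.

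**Figure D4:**
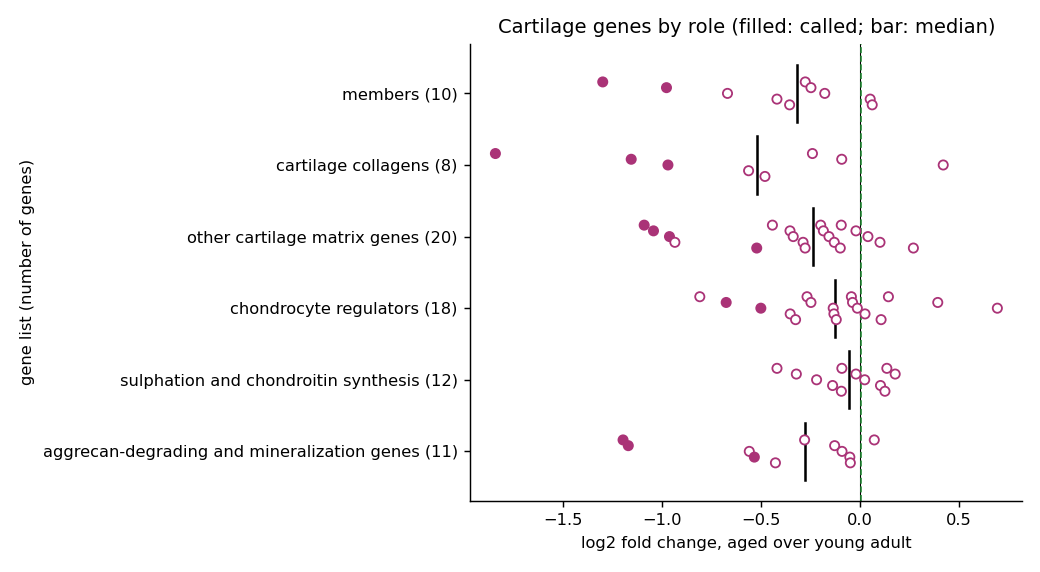
Log2 fold change of aged over young adult mice (horizontal axis) for each gene (points, filled where P and FDR passed) of the 10 cartilage genes and of 5 further lists (rows, with the number of genes), with a bar at each list's median and a dashed line at the median of all genes. Every filled point lies left of 0, and the row for sulphation and chondroitin synthesis, with a median of -0.054, has none.

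Markers of neighbouring cell types differed between the ages as well. Over all genes 2.33% fell and 1.65% rose, and 7.08% were lower at an unadjusted P-value below 0.05 in limma. Of the 10 osteoblast and osteocyte markers 5 fell and 0 rose (7 lower and 1 higher at that unadjusted limit). Their summed level went from between 29332 and 31553 on the young adult arrays to between 15293 and 16006 on the aged arrays. *Sost*, the defining osteocyte marker and the 1 higher at that limit, was at background on all arrays. Such sums mostly follow the brightest genes of a list. Among these markers that was *Bglap2*, which averaged 22317 in young adult and 11360 in aged mice. Of the 8 osteoclast markers 5 fell, with sums of 52447 to 52961 and of 18297 to 18458. Of the 9 fibroblast markers 6 fell, with sums of 230902 to 255435 and of 122550 to 130105, and of the 5 tendon markers, which include *Fmod*, 3 fell and *Mkx* rose, with sums of 5932 to 6098 and of 3355 to 3391.

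Some markers of bone, osteoclasts, fibroblasts and tendon thus fell in the same RNA in which *Acan* and *Ucma* fell. The medians of these 4 marker lists were -0.75, -0.73, -1.03 and -0.40. That of the 10 cartilage genes was -0.31, with *Matn1* and *Matn3* at background counted in. How much of each tissue was dissected with the mucosa was not measured, and its part in the differences was not tested. Markers of glia, dividing cells and endothelium also included genes that fell, 2, 3 and 2 of 5 each, against 2.33% of all genes.

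Markers of the epithelium and glands had few calls, in both directions. Of the 9 markers of mature olfactory receptor neurons, all detected on every array, 0 fell and *Stoml3* rose. Of all genes 2.33% fell and 1.65% rose. At an unadjusted P-value below 0.05 in limma, 0 were lower and 2 higher. Of all genes 7.08% were lower at that limit, and 5990 of 45604 passed it in either direction. For all 9 both aged values were above both young adult values, an arrangement that 24.2% of all genes had. Their sums were 568680 to 577430 in young adult and 630370 to 638210 in aged mice. Of the 5 sustentacular markers 0 were called by limma (1 was lower at an unadjusted P-value below 0.05), with sums of 859746 to 866643 and of 852067 to 877925. The 4 gland markers had 1 that fell, *Bhlha15*, and 1 that rose, *Muc5b*. The medians of the 3 lists were 0.15, 0.051 and -0.10.

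**Figure D5:**
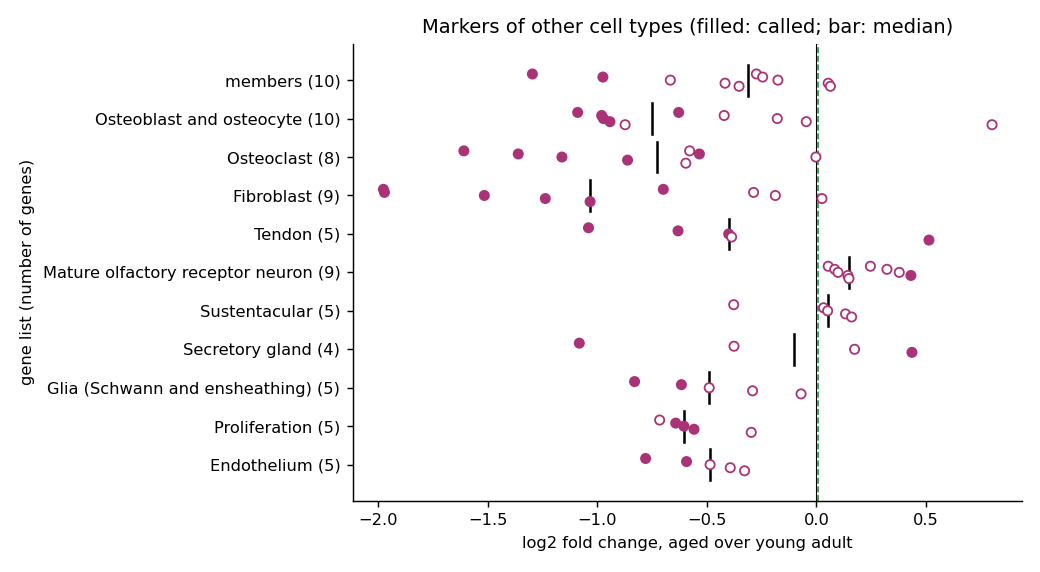
Log2 fold change of aged over young adult mice (horizontal axis) for markers of other cell types (points, filled where P and FDR passed, rows with the number of genes) beside the 10 cartilage genes, with a bar at each median and a dashed line at the median of all genes. Bone, osteoclast, fibroblast and tendon markers have medians between -1.03 and -0.40, while those of neuron and sustentacular markers are 0.15 and 0.051; the rightmost open point, *Sost*, was never well above background.

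The number of arrays limits these calls. With any of the 4 arrays left out, 1 age has a single array that is assumed to vary like the other age, and limma called 0 genes of the whole table (smallest FDR 0.408 to 0.677), 3294 to 5291 genes and 2 to 3 of the 10 cartilage genes, all lower, having an unadjusted P-value below 0.05. *Acan* had a log2 fold change between -1.51 and -1.09 and *Ucma* between -1.19 and -0.78. The share of spots well above background was 63.1 to 76.8% and the median local background 32 to 67 over the arrays. The first array of each age had the higher background and the lower share, and these were the 2 arrays on the shared slide.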

How the data were processed

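Septal nasal mucosa RNA of 2 young adult and 2 aged pools was measured on Agilent one-color arrays. The authors extracted spot intensities with Feature Extraction 11.0.1.1, and the deposited files give, per spot, the median intensity, the median local background, a processed intensity and quality flags, not normalized between arrays. The submitters' processing notes also name R 3.2.1. The deposited series table repeated this processed intensity (62976 of 62976 spots on each array).

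In limma 3.58.1 (R 4.3.3), the median signal (a mean signal was not among the columns used) was background corrected by normexp with an offset of 0. Control and outlier-flagged spots were left out, spots of a probe averaged, log2 values quantile normalized and probes of a gene averaged. Levels are these values on the linear scale. 12 genes without a value on every array were left out. Accessions of 32994 of 56605 probes (58.3%) matched a RefSeq gene table of GRCm38.p6, and the other probes kept the array's identifier. The array design uses another build, so no gene coordinates are given, and the promoter windows come from the RefSeq promoter table.

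Ages were compared with lmFit and eBayes without covariates, as the study's methods name limma, and called where P was below 0.05 and the FDR, adjusted by Benjamini-Hochberg over 45604 genes, below 0.25. The fit was tested on simulated data: of 200 genes changed by a mean log2 of 1.00, 112 were called, with 31 unchanged genes, and with none changed 0 of 45604 were. The members and gene lists were chosen with earlier results of these data known. Named were all 10 members with every probe, up to 4 called genes with the largest change per cartilage list, and the extremes of a list without calls; other names were chosen after their values were seen. The alternatives were other background corrections, scalings and probe rules, dim probes left out, an intensity trend, a replicate block, single slides, each array left out, and other limits. The number of arrays limits the precision. No protein sequences were used here.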

Additional observations from a re-analysis of the deposited data

How the results depend on the processing

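The number of the 10 cartilage genes called lower, 2, moved with the processing: 6 with a normexp offset of 50 or an intensity trend, 5 without background correction, with the quantile-normalized scanner signal or with dim probes left out (8 genes then tested), 4 with each probe fitted on its own, 1 with 75th percentile scaling of either signal or with the limits on mean and fold added, and 0 at an FDR below 0.05, where 6 had an unadjusted P below 0.05. None was called higher under any of these. *Acan* passed in all 10 alternatives of signal, scaling, filter, probe rule and variance trend. *Ucma* did not with either 75th percentile scaling, cyclic loess, dim probes left out or the most intense probe. Of the genes not called in the main fit, *Chad* passed in 7 of these 10, *Comp* and *Matn4* in 5 each and *Sox9* in 4. With cyclic loess the 2 genes called were *Acan* and *Chad*.

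Called collagens, 3, became 5 with the offset of 50, with the most intense probe and with single probes, and 6 with dim probes left out or the trend. Called other matrix genes, 4, became 9 with the offset of 50 or with dim probes left out, 8 without correction or with the quantile-normalized scanner signal, and 10 with the trend. Deviations of same-numbered arrays from their age means correlated at -0.078. With 2 arrays per age this cannot decide whether the numbers pair the arrays, and the arrays numbered 1 shared a slide. With the replicate block all 3 counts were 0, as no gene passed (smallest FDR 0.433, 5 of the 10 cartilage genes lower at an unadjusted P below 0.05). With each array left out the counts were 0 to 0. Single slides give no count. *Sox5* turned to -0.0037 with the scaled scanner signal and to -0.075 with dim probes left out, and ran from -0.048 to 0.17 with each array left out. Calls over all genes, 754 higher and 1063 lower, were 2107 and 2475 with the offset of 50 and 1788 and 2239 without correction. They were 2029 and 2343 with the quantile-normalized scanner signal and 3612 and 3518 with the trend. With dim probes left out they were 3578 and 3671 of only 29495 genes tested. With 75th percentile scaling they were 584 and 826, or 645 and 861 for the scanner signal, and with the most intense probe 1004 and 1411. At an FDR below 0.05 no gene of the whole table passed in the main fit (smallest FDR 0.0945 by limma). The counts of called members are thus to be read beside the calls over all genes in the same setting. *Acan*, *Ucma*, *Matn4*, *Chad*, *Comp*, *Sox9* and *Hapln1* were lower in all 17 alternatives, *Acan* from -1.78 to -0.92 and *Ucma* from -1.66 to -0.46. The cause of these shifts was not tested.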

Other observations

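*Sox6*, the closest partner of *Sox5* in chondrocytes, and *Col9a1*, of the collagen that coats type II fibrils, were looked at after their values were seen. *Sox6* read 72.6 and 66.3 in the young adult pools and 197 and 64.3 in the aged pools, a log2 fold change of 0.70 (FDR = 0.688 by limma). The high value came from 1 of its 3 probes, which read 1344 on the first aged array and between 37.1 and 43.1 on the other arrays. Its brightest probe on the other 3 arrays read 285 and 237 in young adult and 241 and 219 in aged mice (-0.18). *Col9a1* had a bright probe that rose, from 1766 and 1607 to 2351 and 2471 (log2 fold change 0.52, FDR = 0.231 when each probe was fitted on its own), while its gene average, with a dim second probe, did not pass (0.42, FDR = 0.569). It was the one cartilage collagen of the 8 above 0.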
